A study of Mus musculus with 8 samples.

Results

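KLF3 is a zinc finger repressor, and 10 genes for its corepressor complex are described here. They encode the corepressor CtBP, the LIM domain cofactor FHL3, and chromatin-modifying enzymes that CtBP gathers with their partner proteins. They were chosen by name and not by a rule on their values, though with earlier results of these data known. They are Ctbp1, Ctbp2, Fhl3, Hdac1, Hdac2, Rcor1, Kdm1a, Ehmt1, Ehmt2 and Wiz. All 10 were listed among the 13056 protein-coding genes of the sorted cell data and among the 14319 of the overexpression data.

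RNA-seq was performed on mouse embryonic stem cells (mESCs), which the labels give as C57BL/6(F) x 129/sv(M), grown on gelatin with serum and LIF. In the first experiment, cells of a reporter line were sorted by GFP into a KLF3-GFP-positive and a KLF3-GFP-negative group, 500 cells per sample, and sequenced after Smart-seq2, which amplifies full-length cDNA from few cells. Both sorted groups carried the same piggyBac construct, in which the CAGGS promoter drove the N-terminal part of KLF3, without its DNA-binding domain, fused to Emerald GFP, while EF1α drove DsRed, in picked colonies. In the second experiment, codon-optimized Klf3 (KLF3-OE) or GFP (GFP-OE) was induced with doxycycline, and poly(A) RNA was taken for sequencing 72 hours later. Both of these groups came from picked clones of the R26 mESC line, with the M2rtTA activator at Rosa26 and the transgene inserted at Col1a1. Each of the 4 groups had 2 samples. The deposited values are FPKM, fragment counts scaled for transcript length and sequencing depth, and each is the authors' mean of the 2 samples of a group. The spread between samples and the number of reads are therefore unknown for every value below, and no difference could be tested against replicate error. The 2 experiments used different library protocols, so levels were compared only within an experiment.

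CtBP proteins do not bind DNA. They are brought to promoters and enhancers by factors that carry a short peptide motif, such as KLF3, whose N-terminal region holds it, and they bridge these factors to enzymes that remove acetyl groups from histones, demethylate histone H3 lysine 4 and methylate lysine 9. The enzymes of the complex also act without CtBP: HDAC1 and HDAC2 in several other corepressor complexes, LSD1 with CoREST, and G9a with GLP as the main enzymes for mono- and dimethylation of H3K9 in euchromatin of mESCs.

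KLF proteins bind CACCC boxes, and KLF3 is known to repress other Klf genes through such elements. The 250 bases before the RefSeq start (GRCm38.p6) that lay nearest the annotated gene start are shown for the H3K9 methyltransferase pair Ehmt2 and Ehmt1 and their zinc finger partner Wiz, since Wiz and Ehmt2 had the largest differences of the 10 genes in sorted and in overexpressing cells, and Ehmt1 is the paralogue of Ehmt2. CACCC, or GGGTG for a match on the other strand, is in capitals and all other bases are in lower case, 5′ to 3′ on the strand of the gene.
Ehmt2, chr17:34898224-34898473, plus strand: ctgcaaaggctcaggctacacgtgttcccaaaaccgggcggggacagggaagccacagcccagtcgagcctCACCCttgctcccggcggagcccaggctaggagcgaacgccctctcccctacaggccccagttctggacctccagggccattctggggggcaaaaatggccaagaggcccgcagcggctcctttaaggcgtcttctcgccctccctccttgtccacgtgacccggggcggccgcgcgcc
Ehmt1, chr2:24919610-24919859, minus strand: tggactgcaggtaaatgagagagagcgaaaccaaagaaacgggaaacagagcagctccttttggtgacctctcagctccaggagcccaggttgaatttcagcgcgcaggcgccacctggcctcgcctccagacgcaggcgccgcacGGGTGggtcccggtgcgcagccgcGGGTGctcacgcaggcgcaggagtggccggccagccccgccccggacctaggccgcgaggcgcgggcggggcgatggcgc
Wiz, chr17:32389407-32389656, minus strand: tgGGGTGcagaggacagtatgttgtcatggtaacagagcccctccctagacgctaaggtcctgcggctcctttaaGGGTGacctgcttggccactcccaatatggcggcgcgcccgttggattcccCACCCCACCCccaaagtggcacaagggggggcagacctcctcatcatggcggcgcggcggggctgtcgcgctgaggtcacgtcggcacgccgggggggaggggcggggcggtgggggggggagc
Ehmt2 held 1 match, Ehmt1 held 2 and Wiz held 4, of which 2 lay on each strand and 2 directly abutted. Windows at other starts, not shown, held 0, 2 and 1 matches for Wiz and 0 for Ehmt2. Of 32851 promoter windows of this length, 52.0% held at least 1 match, 21.1% at least 2 and 2.14% at least 4. These shares cover windows at all listed starts, not only those nearest the gene start. Among the 9 genes with a window in the table, 7 had a match in the window nearest their start, and Ctbp2 and Rcor1 had none. The Ctbp2 window lay at a start 42494 bases downstream of the annotated gene start. A match is a stretch of letters and was not tested as a binding site.

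For the tables as a whole, differences were taken on the log2(FPKM + 1) scale for genes that averaged 1 FPKM or more over the groups of an experiment, 9212 genes in sorted cells and 11179 after overexpression. Genes above 2-fold or below 0.5 on this scale were called upregulated or downregulated. The median difference of these genes was 0.03 in sorted cells and −0.18 after overexpression, where it fell from 0.35 in the quintile of genes with the shortest genomic span to −0.49 in the quintile with the longest, and rose with the GC content of the transcripts from −0.51 in the lowest quintile to 0.12 in the highest. Genes for ribosomal proteins took 28.9% of summed FPKM in GFP-OE cells and 38.9% in KLF3-OE cells, against 30.6% and 26.3% in the KLF3-GFP-negative and the KLF3-GFP-positive cells. All 12 pluripotency markers were listed in all 4 groups, Pou5f1, which encodes OCT4, at 114.62, 59.43, 883.19 and 989.69 FPKM in the KLF3-GFP-negative, KLF3-GFP-positive, GFP-OE and KLF3-OE cells. In sorted cells 7 of them were downregulated, and after overexpression 4 of 12 were. In sorted cells 11 markers were lower and 1 higher, with a median difference of −1.06. After overexpression 8 markers were lower and 4 higher, with a median of −0.72, although Pou5f1 and the summed level of the markers were higher. Their summed level was 21988.4 and 11523.8 FPKM in the sorted groups and 6590.22 and 8705.63 FPKM in GFP-OE and KLF3-OE cells. All 11 primitive endoderm markers were upregulated in both experiments, with a summed level of 11.53 FPKM in the KLF3-GFP-negative and 674.11 FPKM in the KLF3-GFP-positive cells, and 64.22 FPKM in GFP-OE and 353.83 FPKM in KLF3-OE cells. Trophoblast markers upregulated were 2 of 4 tested in sorted cells, Krt8 and Krt18, and 3 of 6 after overexpression. Of those tested, 3 were higher and 1 lower in sorted cells, and 5 were higher and 1 lower after overexpression. With a pseudocount of 0.1, 1 of the 4 was downregulated in sorted cells. The summed levels of the trophoblast markers were 35.11 and 392.81 FPKM in the sorted groups and 97.46 and 546.64 FPKM in GFP-OE and KLF3-OE cells. The trophoblast factor Cdx2 was at 0.1 FPKM, the lowest value listed, in both control groups and at 0.57 and 0.60 FPKM in the KLF3-GFP-positive and KLF3-OE cells. Of 8 markers of fibroblasts or of the feeder cells on which the overexpression clones were selected, 2 were listed in sorted cells and 4 after overexpression, with sums between 0.51 and 4.41 FPKM in every group. The pluripotency, primitive endoderm and trophoblast markers moved with the same groups as the genes below, and their part in those differences was not tested. Since these are bulk samples, fewer cells that express a gene and less of its RNA per cell cannot be told apart.

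Fhl3 and Rcor1 had the lowest levels of the 10 genes in each group, and the deacetylase genes Hdac1 and Hdac2 were among the 3 highest. In sorted cells, none of the 10 passed the 2-fold limit in either direction, where 22.1% of all genes tested did, 13.8% upwards and 8.32% downwards. A weaker limit of 1.5-fold was passed downwards by 3 of 10, Ctbp2, Kdm1a and Wiz, and upwards by none, against 18.1% and 24.3% of all genes, or 42.4% in either direction. The median of the 10 differences was −0.50, with 4 higher and 6 lower in the KLF3-GFP-positive cells, where 51.7% of all genes were higher and 48.1% lower. The levels of the 10 genes summed to 212.36 FPKM in the KLF3-GFP-negative and 160.52 FPKM in the KLF3-GFP-positive cells. After overexpression, Ehmt2 was upregulated and none was downregulated, where 6.6% and 10.1% of all genes tested were called in these directions, 16.7% together. At 1.5-fold, 2 were higher, Ehmt2 and Fhl3, and 3 were lower, Rcor1, Ehmt1 and Wiz, against 15.8% and 27.2% of all genes, or 43% in either direction. The median of the 10 was −0.30, or −0.12 relative to the median of all genes, with 2 higher and 8 lower in KLF3-OE cells where 40.5% of all genes were higher and 59.4% lower. Relative to that median, 3 were higher and 7 lower. The sums were 464.72 FPKM in GFP-OE and 431.41 FPKM in KLF3-OE cells.

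**Figure D1:**
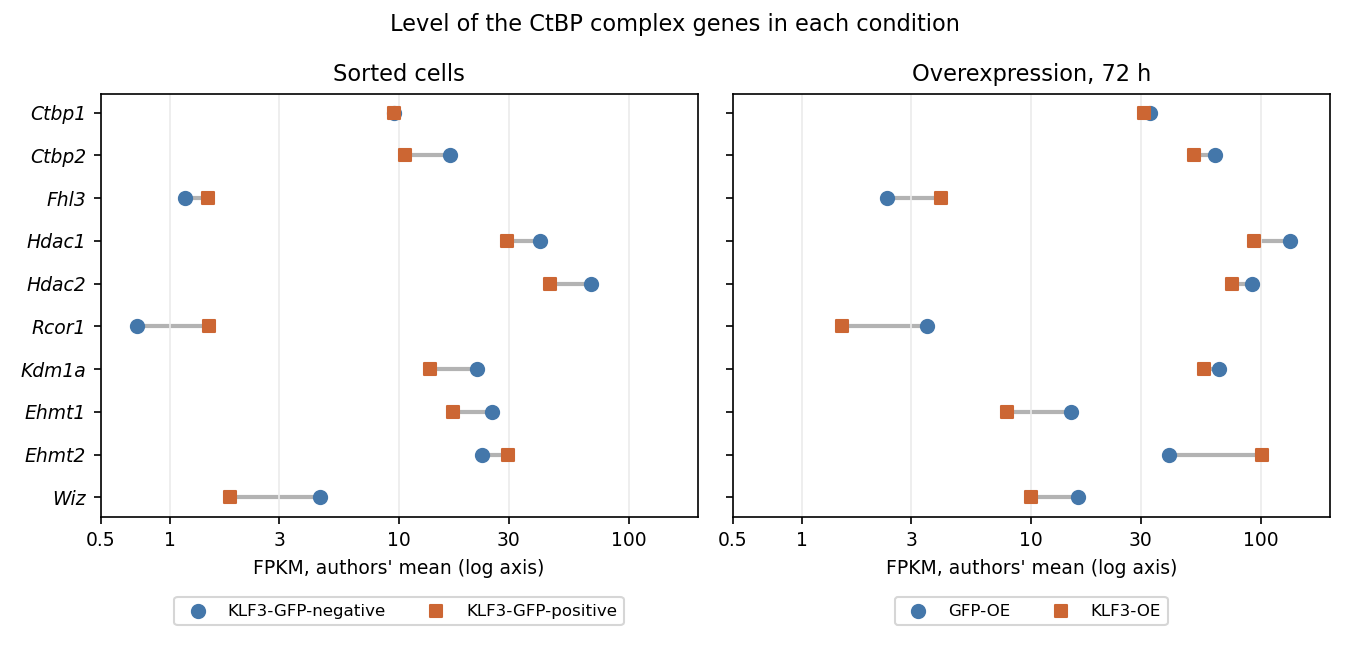
Level of the 10 CtBP complex genes in FPKM (authors' mean of 2 samples, log axis) in the KLF3-GFP-negative (blue circles) and KLF3-GFP-positive cells (orange squares), left, and in GFP-OE (blue circles) and KLF3-OE cells (orange squares), right. Ehmt2 went from 39.79 to 100.95 FPKM in the right panel, and Fhl3 and Rcor1 were the lowest pair in every group.

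**Figure D2:**
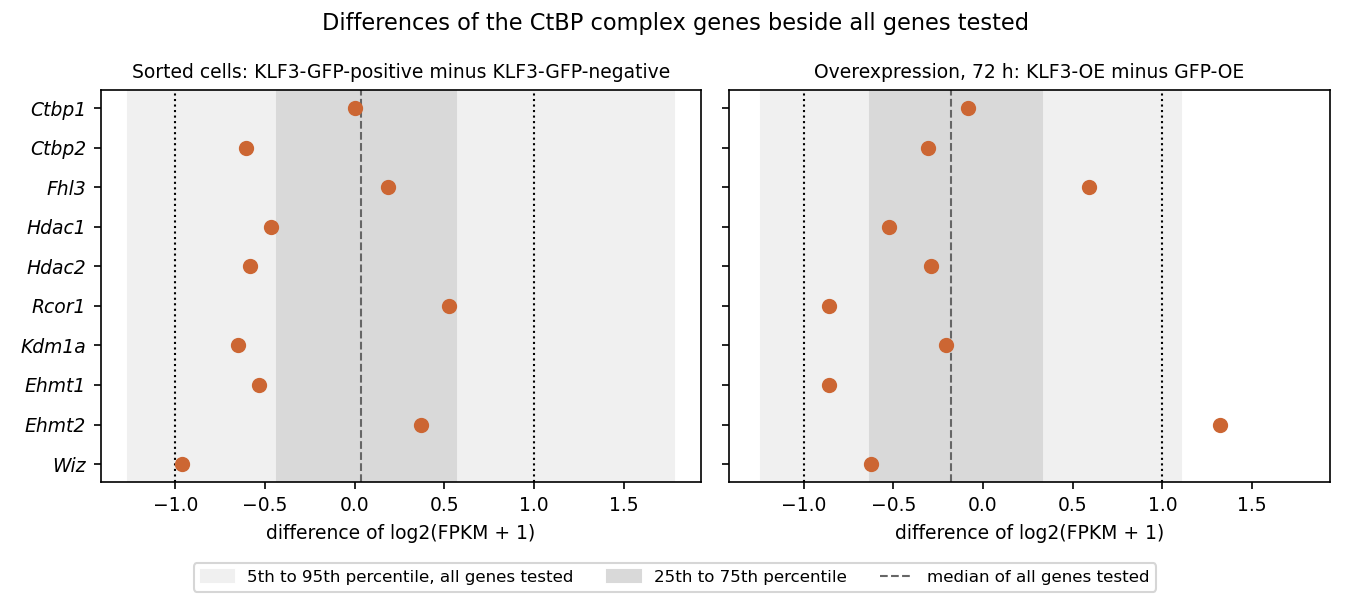
Difference of log2(FPKM + 1) of each gene between the groups of each experiment, with the 5th to 95th percentile (light grey), the 25th to 75th percentile (dark grey) and the median (dashed) of all genes tested and the 2-fold limits (dotted). Ehmt2 lay past a limit in overexpressing cells (1.32), and Wiz lay just inside one in sorted cells (−0.96).

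Ctbp1 and Ctbp2 encode the corepressors themselves. Ctbp1 (ENSMUSG00000037373, chr5:33247723-33274994, minus strand, mm10 as for all gene positions here) was at 9.51 FPKM in the KLF3-GFP-negative and 9.53 FPKM in the KLF3-GFP-positive cells, and at 33.03 FPKM in GFP-OE and 31.06 FPKM in KLF3-OE cells. Its differences were 0.00 and −0.09 on the log2(FPKM + 1) scale. They lay near the middle of all genes tested, at percentiles 48.4 and 55.1. Ctbp2 (ENSMUSG00000030970, chr7:132987563-133124354, minus strand) was the more abundant of the pair in all 4 groups. Its level was 16.65 FPKM in the KLF3-GFP-negative and 10.59 FPKM in the KLF3-GFP-positive cells, a difference of −0.61 at percentile 17.3. After overexpression it was 63.39 FPKM in GFP-OE and 51.04 FPKM in KLF3-OE cells, a difference of −0.31, or −0.13 relative to the median of all genes. The ratio of Ctbp2 to Ctbp1 was 1.75 in the KLF3-GFP-negative and 1.11 in the KLF3-GFP-positive cells, and 1.92 in GFP-OE and 1.64 in KLF3-OE cells. In the annotation, Ctbp2 shares 135788 bases with the span given for Fgfr2 on the same strand, and Fgfr2 was at 0.61, 3.66, 1.92 and 3.42 FPKM in the order KLF3-GFP-negative, KLF3-GFP-positive, GFP-OE and KLF3-OE. How reads in the shared span were divided is not known.

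Fhl3 (ENSMUSG00000032643, chr4:124700701-124708611, plus strand) encodes a LIM domain cofactor that binds KLF3 as well as CtBP2. It was low in each group. In sorted cells the level was 1.17 FPKM in the KLF3-GFP-negative and 1.47 FPKM in the KLF3-GFP-positive cells, a difference of 0.19. After overexpression it was 2.34 FPKM in GFP-OE and 4.04 FPKM in KLF3-OE cells, a difference of 0.59 at percentile 84.5 of all genes. The difference was 0.25 when the trends with span, transcript length and GC content were removed. Of the related LIM-only genes, Fhl1 passed the minimum level, Fhl2 and Fhl4 were listed below it, and Fhl5 was not listed. Fhl1 was upregulated in sorted cells, from 0.56 to 14.8 FPKM (3.34), and was at 8.5 FPKM in GFP-OE and 16.97 FPKM in KLF3-OE cells, a difference of 0.92 that passed the 2-fold limit under 6 of 12 alternative settings.

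Hdac1 and Hdac2 encode the class I histone deacetylases of the complex. Hdac2 (ENSMUSG00000019777, chr10:36974544-37001889, plus strand) was the most abundant of the 10 genes in both sorted groups, at 68.73 FPKM in the KLF3-GFP-negative and 45.51 FPKM in the KLF3-GFP-positive cells, a difference of −0.58. Hdac1 (ENSMUSG00000028800, chr4:129516104-129542713, minus strand) was at 41.01 and 29.42 FPKM in the same groups, a difference of −0.47. Both were thus lower in the KLF3-GFP-positive mean by less than 2-fold, at percentiles 18.2 and 23.4 of all genes. In overexpressing cells, sequenced with another library protocol, the order of the pair was the other way round. The part of the protocol in this was not tested. Hdac1 was at 134.56 FPKM in GFP-OE and 93.39 FPKM in KLF3-OE cells, a difference of −0.52, or −0.34 relative to the median of all genes. Hdac2 was at 91.51 FPKM in GFP-OE and 74.78 FPKM in KLF3-OE cells, a difference of −0.29, or −0.11 relative to that median. The ratio of Hdac2 to Hdac1 was 1.68 and 1.55 in the KLF3-GFP-negative and KLF3-GFP-positive cells and 0.680 and 0.801 in GFP-OE and KLF3-OE cells.

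Rcor1, which encodes the scaffold CoREST1, and Kdm1a, which encodes the H3K4 demethylase LSD1 held by it, went in different directions in sorted cells. Rcor1 (ENSMUSG00000037896, chr12:111039351-111115901, plus strand) was at 0.72 FPKM in the KLF3-GFP-negative and 1.48 FPKM in the KLF3-GFP-positive cells, a difference of 0.53 on the log2(FPKM + 1) scale. The level of Kdm1a (ENSMUSG00000036940, chr4:136550540-136602723, minus strand) was 21.84 and 13.57 FPKM in these groups, a difference of −0.65 at percentile 15.9. After overexpression, Rcor1 was at 3.52 FPKM in GFP-OE and 1.49 FPKM in KLF3-OE cells, a difference of −0.86, or −0.68 relative to the median of all genes. Kdm1a was at 65.72 FPKM in GFP-OE and 56.89 FPKM in KLF3-OE cells, a difference of −0.20 that lay at the median of all genes (−0.03 relative to it). Rcor1 is a low gene with a span of 76.551 kb, and its difference changed in size with the pseudocount and with the removal of trends. With no pseudocount its difference was 1.04 in sorted and −1.24 in overexpressing cells, and with the trends of span, transcript length and GC content removed it was 0.21 and −0.21. The 3′ end of Kdm1a shares 4241 bases with Luzp1 on the opposite strand, and Luzp1 was at 23.71, 31.74, 12.32 and 4.35 FPKM in the order KLF3-GFP-negative, KLF3-GFP-positive, GFP-OE and KLF3-OE. Whether strand was used in computing FPKM is not given, and the Smart-seq2 libraries carry no strand.

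Rcor2, a paralogue of Rcor1 that also binds LSD1, was the more abundant CoREST scaffold gene in all 4 groups. It was downregulated in sorted cells, from 12 FPKM in the KLF3-GFP-negative to 4.92 FPKM in the KLF3-GFP-positive cells (−1.13), and was at 55.89 FPKM in GFP-OE and 51.87 FPKM in KLF3-OE cells (−0.11). The ratio of Rcor2 to Rcor1 was 16.7 and 3.32 in the KLF3-GFP-negative and KLF3-GFP-positive cells, and 15.9 and 34.8 in GFP-OE and KLF3-OE cells. LSD1 transcripts exceeded those of Rcor1 by 30.3-fold and 9.17-fold in the sorted groups and by 18.7-fold and 38.2-fold in the overexpressing groups. These ratios rest on low Rcor1 values. With 1 FPKM added to each value, the ratio of Rcor2 to Rcor1 was 7.56 and 2.39 in the sorted groups and 12.6 and 21.2 in GFP-OE and KLF3-OE cells, and that of Kdm1a to Rcor1 was 13.3, 5.88, 14.8 and 23.2 in the same order.

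Ehmt2 and Ehmt1 encode G9a and GLP, the H3K9 methyltransferases that work as a heterodimer, and Wiz encodes a zinc finger protein that joins the dimer to CtBP. Ehmt2 (ENSMUSG00000013787, chr17:34898469-34914052, plus strand) was upregulated after overexpression, from 39.79 FPKM in GFP-OE to 100.95 FPKM in KLF3-OE cells. The ratio of the means was 2.54, and the difference was 1.32 on the log2(FPKM + 1) scale, at percentile 97.3 of all genes, whose median was −0.18. With it, Ehmt2 moved from rank 5 among the 10 genes in GFP-OE cells to rank 1 in KLF3-OE cells. Ehmt2 has a span of 15.584 kb and transcripts with a median GC content of 60.0%, against medians of 21.737 kb and 51.2% for all genes tested. Its difference was 1.44 with the span trend removed, 1.15 with the GC trend removed and between 1.10 and 1.53 over the 12 alternative settings. In sorted cells, Ehmt2 was at 22.89 FPKM in the KLF3-GFP-negative and 29.92 FPKM in the KLF3-GFP-positive cells, a difference of 0.37.

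Ehmt1 (ENSMUSG00000036893, chr2:24789928-24919614, minus strand) was lower in the mean where Ehmt2 was higher. Its level was 25.33 FPKM in the KLF3-GFP-negative and 17.2 FPKM in the KLF3-GFP-positive cells, a difference of −0.53. After overexpression, it was 14.94 FPKM in GFP-OE and 7.8 FPKM in KLF3-OE cells, a difference of −0.86, or −0.68 relative to the median of all genes. Its span of 129.687 kb places it among long genes, and the difference was −0.40 with the span trend removed. The ratio of Ehmt2 to Ehmt1 went from 0.904 in the KLF3-GFP-negative to 1.74 in the KLF3-GFP-positive cells, a 1.92-fold increase, and from 2.66 in GFP-OE to 12.9 in KLF3-OE cells, a 4.86-fold increase. On the log2 scale the second change was 2.28, and it was 1.84 with the span trend removed and 1.86 with the GC trend removed.

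Wiz (ENSMUSG00000024050, chr17:32354055-32389401, minus strand) had the largest difference of the 10 genes in sorted cells. It was at 4.51 FPKM in the KLF3-GFP-negative and 1.83 FPKM in the KLF3-GFP-positive cells, 2.46-fold lower in plain FPKM. On the log2(FPKM + 1) scale the difference was −0.96 at percentile 8.90, just inside the 2-fold limit, and it lay past the limit under 8 alternative settings. In the annotation, Wiz shares 9141 bases with a long non-coding RNA gene on the opposite strand. After overexpression, Wiz was at 15.92 FPKM in GFP-OE and 9.97 FPKM in KLF3-OE cells, a difference of −0.63, or −0.45 relative to the median of all genes. This difference was −0.24 with the span trend removed and −0.22 with the transcript length trend removed. Within the G9a, GLP and Wiz group, the gene for the enzyme G9a was thus the one with a higher mean in KLF3-OE as well as KLF3-GFP-positive cells, and those for GLP and Wiz had lower means in both.

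**Figure D3:**
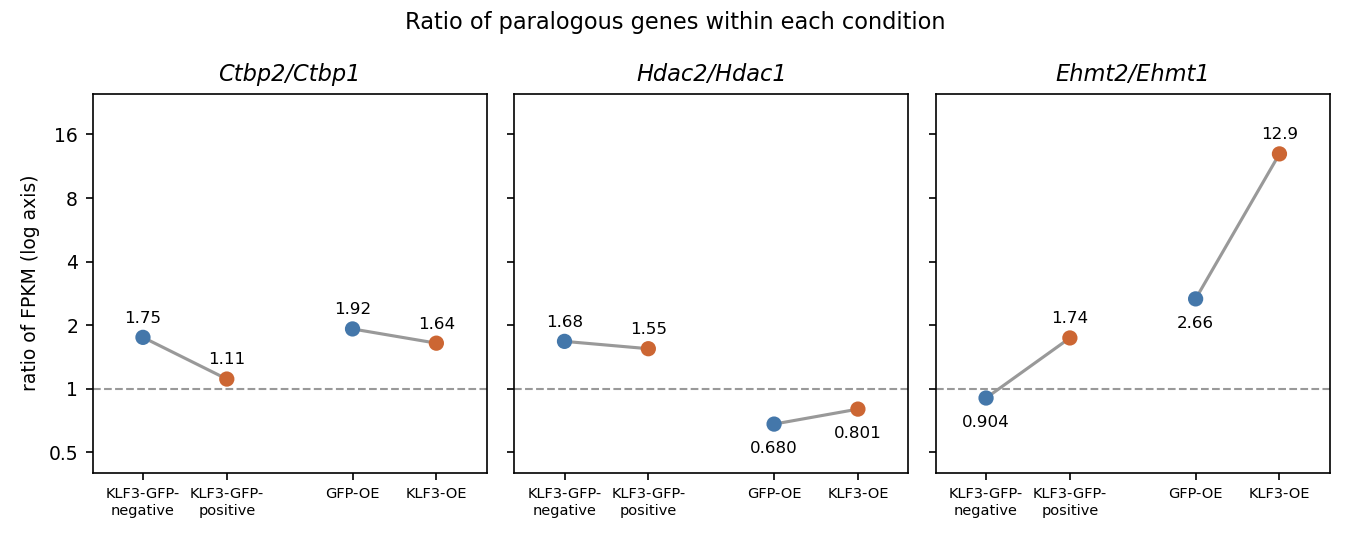
Ratio of FPKM (log axis) of Ctbp2 to Ctbp1, Hdac2 to Hdac1 and Ehmt2 to Ehmt1 within each of the 4 groups, each from the authors' means, with controls in blue and KLF3-GFP-positive and KLF3-OE cells in orange. Ehmt2 to Ehmt1 went from 2.66 to 12.9 after overexpression, while the other two ratios stayed between 0.680 and 1.92 in every group.

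Scaling altered the sign of the smallest differences. With each of the other scalings, Ctbp1 changed sign in sorted cells. After overexpression, Ctbp1 (0.12) and Kdm1a (0.002) changed sign with median-ratio scaling. Both stayed lower with quantile normalization and with equal sums outside ribosomal protein genes. When the span trend was removed, Ctbp2 (0.14) and Hdac2 (0.003) changed sign after overexpression too. Removal of the GC trend changed the sign of Hdac2 (0.24) but not of Ctbp2 (−0.37). Removal of the transcript length trend changed neither Ctbp2 (−0.30) nor Hdac2 (−0.14) in sign. When the trends of span, transcript length and GC content were removed together, Ctbp2 stayed lower (−0.14) and Hdac2 was higher (0.20). The other 9 genes in sorted cells and the other 6 in overexpressing cells kept their sign under all alternatives.

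**Figure D4:**
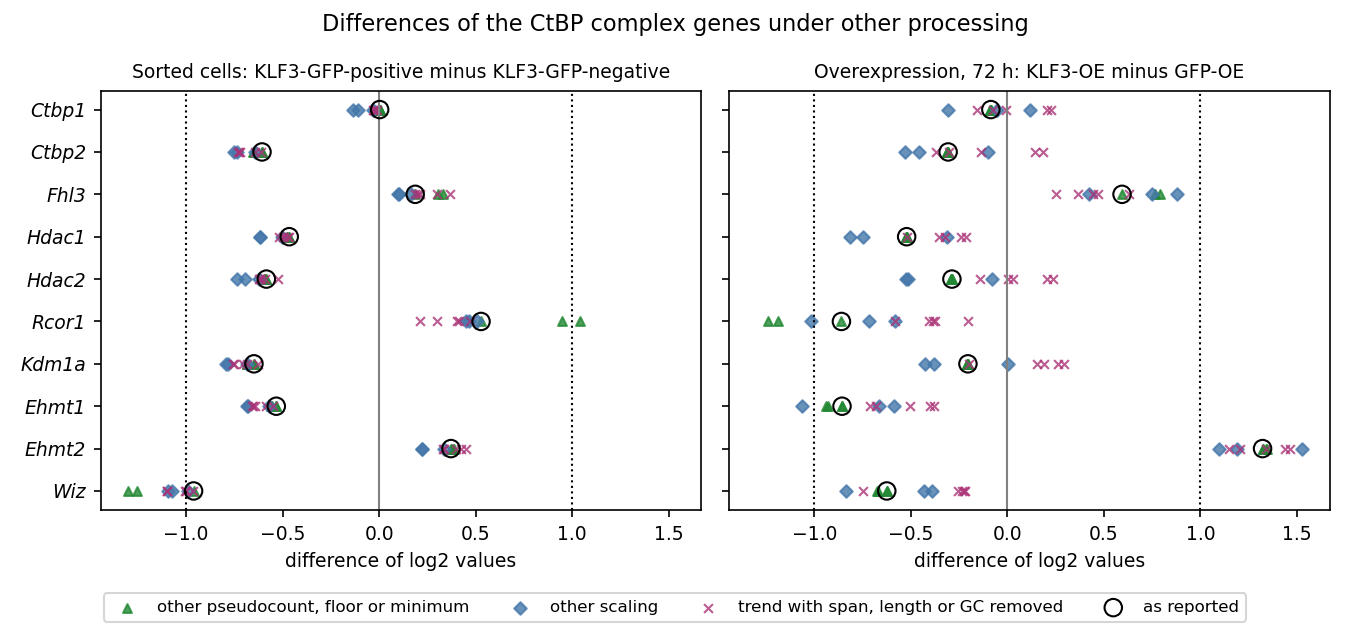
Difference of log2 values of each gene as reported (open circles) and under other pseudocounts, floors or expression minimums (triangles), other scalings (diamonds) and removal of trends with genomic span, transcript length or GC content (crosses), with dotted lines at the 2-fold limits. Ehmt2 stayed above the limit in all settings after overexpression (1.10 to 1.53), while Ctbp1, Ctbp2, Hdac2 and Kdm1a lay on both sides of 0 there.

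Other genes of these pathways were examined as lists. Of all genes tested, 13.8% were upregulated and 8.32% downregulated in sorted cells, and 6.6% and 10.1% after overexpression. These shares stand beside every list count below. Of 11 other genes of the CtBP and CoREST complex, 9 passed the minimum level in each experiment. In sorted cells 1 was upregulated, 1 downregulated and 7 were not past 2-fold, with a median of −0.03. Hmg20b, which encodes the HMG subunit BRAF35, was upregulated from 46.3 FPKM in the KLF3-GFP-negative to 94.51 FPKM in the KLF3-GFP-positive cells (1.01), narrowly, since it fell short of the limit under 3 of 12 alternatives. Zfp644, a zinc finger partner of G9a, GLP and WIZ, was at 24.63 and 15.02 FPKM (−0.68) in the same groups. After overexpression 0 were upregulated and 6 downregulated, with a median of −1.10. They included Cdyl, a chromodomain corepressor (12.45 FPKM in GFP-OE and 3.74 FPKM in KLF3-OE, −1.50), Phf21a, the reader of unmethylated H3K4 in the complex (14.07 and 4.79 FPKM, −1.38), and Rcor3 (2.72 and 0.63 FPKM, −1.19). Hmg20b was the exception in direction, at 23.61 FPKM in GFP-OE and 47.46 FPKM in KLF3-OE cells (0.98). The count of 6 downregulated genes fell to 3 with median-ratio scaling or quantile normalization and to 1 with the span trend removed.

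DNA-binding proteins that recruit CtBP or CoREST had 3 of 14 genes tested in sorted cells, of which 1 was downregulated. It was Rest, the repressor of neuronal genes, at 22.25 FPKM in the KLF3-GFP-negative and 9.8 FPKM in the KLF3-GFP-positive cells (−1.11). In these cells Zfp217, a zinc finger partner of CtBP, was at 1.89 and 1.21 FPKM (−0.39) and Tcf7l1, a repressor in Wnt signalling, at 5.06 and 7.32 FPKM (0.46). After overexpression 4 of the 7 tested were downregulated and 0 upregulated, with a median of −1.06. They were Zfp516, a zinc finger partner of CtBP (6.51 FPKM in GFP-OE and 1.94 FPKM in KLF3-OE, −1.35), Zfp217 (9.11 and 3.7 FPKM, −1.11), Rest (28.35 and 12.79 FPKM, −1.09) and Klf8, a relative of Klf3 (3.26 and 1.04 FPKM, −1.06). Of these 4 calls, 1 was left with median-ratio scaling or quantile normalization and 0 with the span trend removed.

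Of the other class I deacetylase complexes (SIN3, NuRD, NCoR and MiDAC), 29 of 32 genes were tested in sorted cells, 1 was upregulated and 1 downregulated, with a median of 0.01. The upregulated gene was Mbd2, a reader of methylated DNA in NuRD (0.51 FPKM in the KLF3-GFP-negative and 4.45 FPKM in the KLF3-GFP-positive, 1.85), and the downregulated gene was Sap30, a SIN3 subunit (177.57 and 49.39 FPKM, −1.83). Ing2, a reader of methylated H3K4 in the SIN3 complex, was at 8.52 and 16.2 FPKM (0.85). After overexpression 3 of 32 were downregulated, near the share of 10.1% over all genes tested, and 0 upregulated. The median was −0.23, against −0.18 for all genes. The 3 were the corepressor gene Ncor1 (63.16 FPKM in GFP-OE and 26.06 FPKM in KLF3-OE, −1.25), the SIN3 subunit gene Brms1l (11.02 and 4.38 FPKM, −1.16) and the NCoR subunit gene Tbl1x (15.84 and 7.28 FPKM, −1.02). With the span trend removed, 0 of these calls were left.

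Among the other H3K9 methyltransferases and readers, 10 were tested. In sorted cells 0 were upregulated and 1 was downregulated, with a median of −0.44. That gene was Cbx1, which encodes HP1β (220.1 FPKM in the KLF3-GFP-negative and 99.48 FPKM in the KLF3-GFP-positive, −1.14). The reader gene Mphosph8 was at 265.44 and 155.47 FPKM (−0.77), and Suv39h2, an enzyme for H3K9 trimethylation, at 5.26 and 2.72 FPKM (−0.75). After overexpression 1 was upregulated and 2 were downregulated, with a median of −0.65. Trim28, which encodes KAP1, the corepressor of KRAB zinc finger proteins, was upregulated from 644.17 FPKM in GFP-OE to 1892.18 FPKM in KLF3-OE cells (1.55). Setdb1, the methyltransferase gene whose product works with KAP1, was downregulated (23.02 and 9.1 FPKM, −1.25), and so was Cbx3, which encodes HP1γ and has near-identical pseudogenes that could share its reads (84.85 and 20.09 FPKM, −2.03). Trim28 and Cbx3 were called under all 12 alternatives and Setdb1 under 7 of 12, with −0.68 when all 3 trends were removed.

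Other H3K4 and H3K9 demethylases had 6 of 12 genes tested in sorted cells, with 0 called and a median of −0.16. The count was 1 or 2 downregulated under 10 of 12 alternatives, in which Kdm5b passed the limit. The largest differences there were those of the H3K4 demethylase gene Kdm5b (16.24 FPKM in the KLF3-GFP-negative and 7.7 FPKM in the KLF3-GFP-positive, −0.99), the H3K9 demethylase gene Kdm3a (2.7 and 1.2 FPKM, −0.75) and Kdm5c, a relative of Kdm5b (1.79 and 2.98 FPKM, 0.51). After overexpression all 11 tested were lower in KLF3-OE cells and 4 were downregulated, with a median of −0.91. The largest of these were Kdm5a, an H3K4 demethylase (8.34 FPKM in GFP-OE and 2.29 FPKM in KLF3-OE, −1.51), and the H3K9 demethylases Kdm4c (16.06 and 5.04 FPKM, −1.50) and Kdm3b (15.8 and 4.98 FPKM, −1.49). Between 1 and 3 of the 4 calls were left when a trend with span was removed, alone or with others. Set beside these lists after overexpression, the 10 CtBP complex genes had a median closer to that of all genes (−0.30 and −0.18), as had the other deacetylase complexes. The medians of the other CoREST genes, the DNA-binding proteins, the H3K9 list and the demethylases lay between −1.10 and −0.65. The lists of other LIM-only genes (1 tested) and of genes known to be repressed by KLF3 (3 tested) had medians of 0.92 and 0.42. This order changed with the processing. With the trends of span, transcript length and GC content removed, the median was −0.07 for the 10 genes, −0.05 for the H3K9 list, −0.27 for the demethylases and −0.57 for the other CoREST genes.

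**Figure D5:**
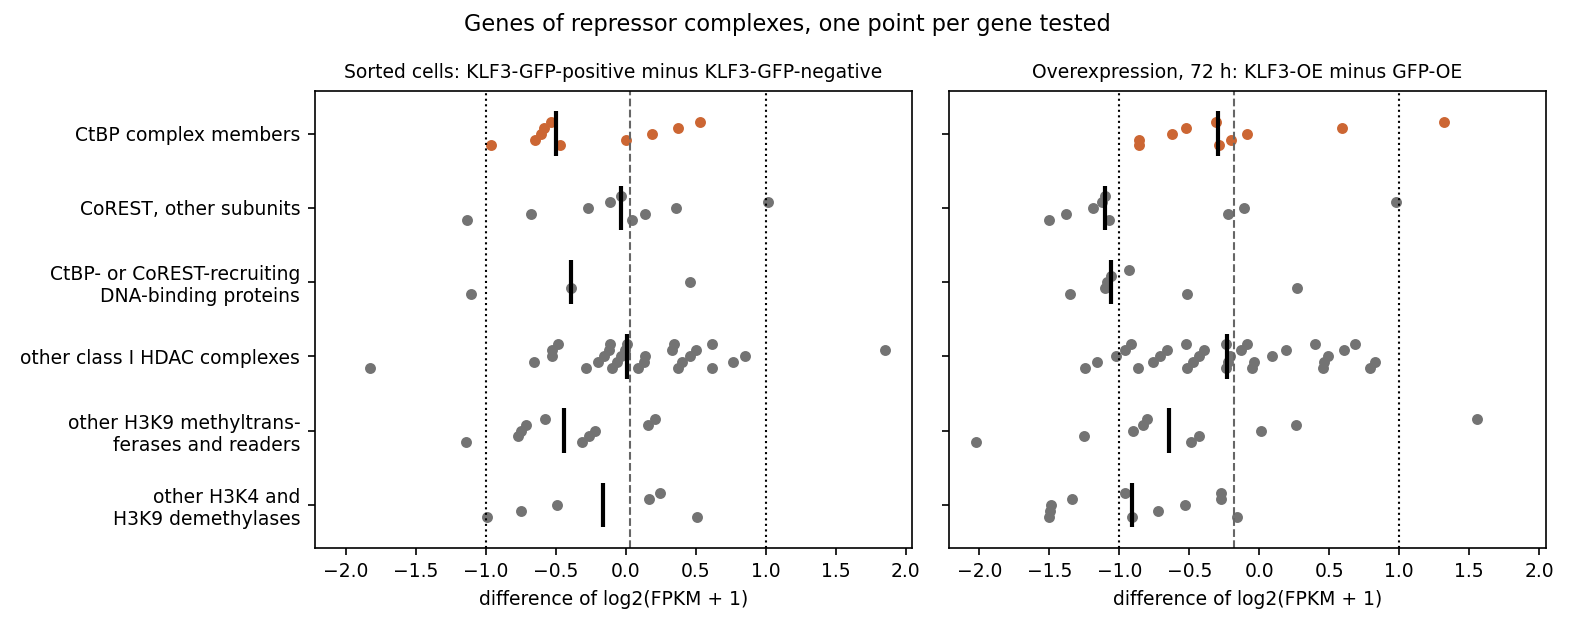
Difference of log2(FPKM + 1) of each gene tested in the CtBP complex (orange) and in 5 lists of other repressor genes (grey), with the list medians as black bars, the median of all genes dashed and the 2-fold limits dotted. After overexpression the 9 other CoREST genes had a median of −1.10 and the 11 other demethylases one of −0.91, against −0.30 for the 10 CtBP complex genes.

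Klf3 itself was at 107.04 FPKM in the KLF3-GFP-negative and 122.29 FPKM in the KLF3-GFP-positive cells (0.19), and at 58.66 FPKM in GFP-OE and 47.76 FPKM in KLF3-OE cells (−0.29, or 0.05 with median-ratio scaling and the span trend removed). The codon-optimized transgene need not align to Klf3 and the reporter holds part of Klf3, so these values do not check the labels. Of genes known from other tissues to be repressed by KLF3, Lgals3, which encodes galectin-3, was at 19.56 FPKM in the KLF3-GFP-negative and 34.43 FPKM in the KLF3-GFP-positive cells (0.79), and at 4.6 FPKM in GFP-OE and 9.68 FPKM in KLF3-OE cells (0.93). Fam132a, an adipokine gene, was downregulated in sorted cells, from 15.07 to 3.71 FPKM (−1.77), and was at 7.08 FPKM in GFP-OE and 9.82 FPKM in KLF3-OE cells (0.42, or −0.16 with all 3 trends removed). Klf8 was at 0.23 FPKM in the KLF3-GFP-negative and 1.12 FPKM in the KLF3-GFP-positive cells, below the minimum mean, and was downregulated after overexpression as given above. The calls after overexpression changed with the processing. Klf8 was past the limit under 4 of 11 alternatives and Lgals3 under 6 of 12, and with median-ratio scaling, quantile normalization or the span trend removed, Lgals3 was upregulated and Klf8 was not called.

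The genes most like Ctbp1 and Ctbp2 were sought by the Euclidean distance of log2(FPKM + 1) levels over the 4 groups, among 8887 genes. For Ctbp1 they were Krr1, at a distance of 0.137 (8.99, 8.8, 33.26 and 29.95 FPKM in the KLF3-GFP-negative, KLF3-GFP-positive, GFP-OE and KLF3-OE cells), Adi1 (0.290) and then Khsrp. For Ctbp2 they were Asun, at a distance of 0.154 (15.23, 9.89, 64.56 and 51.83 FPKM in the same order), Elp2 (0.205) and Gpbp1 (0.208). With 4 values per gene, such likeness is a description of levels.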

How the data were processed

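RNA-seq was performed on 8 samples in 4 groups of 2, assigned by the GEO labels. The authors aligned reads to mm10 with STAR (version 2.6.0 in the submitters' processing notes) guided by GENCODE, and obtained FPKM from Cufflinks (version 2.2.1). The authors deposited 1 FPKM column per group, the average of 2 replicates, rounded to 2 decimals with 0.1 as the lowest value. The depth per sample is unknown, so no interval for counting error, SD or test is given.

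Differences were computed as log2(FPKM + 1) (pseudocount of 1) for genes averaging 1 FPKM or more, and called above 2-fold or below 0.5, with Python (version 3.11.15), pandas (version 2.3.3) and statsmodels (version 0.14.6). The fold limits are those of the study, without its P value, which averages do not give. Trends were lowess fits (fraction 0.3). The 10 genes and the 12 other lists (7 of related genes, Klf3 and 4 of markers) were chosen with earlier results of these data known. Named are the 10 genes, Klf3, the 3 genes of each list that is not a marker list with the largest absolute difference in each experiment, and the 3 nearest in level to Ctbp1 and Ctbp2. Marker lists are given by counts, sums and defining markers (Pou5f1, Cdx2), with Krt8 and Krt18 named after their values were seen. Fgfr2 and Luzp1, which overlap Ctbp2 and Kdm1a, and Rcor2 and Hmg20b after overexpression were also named, after their values were seen. Ctbp1, Rcor1, Ehmt1 and Wiz overlap only genes not annotated as protein-coding, over stretches of up to 9141 bases. How reads in these stretches were divided is not known. Alternatives were other pseudocounts, minimums, fold limits and scalings and removal of the span trend. Removal of trends with GC content and transcript length was added after the data were seen. Promoters were those of RefSeq on GRCm38.p6, the assembly of mm10, and transcripts those of GENCODE. The scripts were checked on simulated data. The changes planted there were larger than most differences given here and lay in well-expressed genes. The check therefore does not bear on small differences or on low genes.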

Additional observations from a re-analysis of the deposited data

How the results depend on the processing

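Of the 10 CtBP complex genes, 0 were past 2-fold in sorted cells as reported. The count was 3 at a 1.5-fold limit, 2 with a floor of 0.1 in place of a pseudocount (Wiz lower, Rcor1 higher), and 1, Wiz, with a pseudocount of 0.1, quantile normalization, equal sums outside ribosomal protein genes, the span trend removed, median-ratio scaling with the span trend removed, the transcript length trend removed, or all 3 trends removed. After overexpression the count of 1 became 5 at a 1.5-fold limit, 2 with a pseudocount of 0.1 or with a floor of 0.1 (Rcor1 lower), and 3 with equal sums outside ribosomal protein genes (Rcor1 and Ehmt1 lower). The cause was not tested. The median of the 10 genes stayed between −0.65 and −0.50 in sorted cells, and after overexpression went from −0.30 to −0.52 with equal sums outside ribosomal protein genes, −0.42 with quantile normalization, 0.07 with the span trend removed and 0.11 with median-ratio scaling as well. Over all genes, 39.4% of calls after overexpression were upward as reported, 62.6% with median-ratio scaling, 52.9% with quantile normalization and 18.7% with equal sums outside ribosomal protein genes. Since the spread between replicates is unknown, a single value was taken as moved when it shifted by more than 1.5-fold, which held among the 10 genes for Rcor1 after overexpression with all 3 trends removed (−0.21). For the other genes named, the most extreme values are given. The shift was of this size in sorted cells for Mbd2 (up to 3.13) and Fhl1 (up to 4.72) with a floor of 0.1. Fhl1 also moved with a pseudocount of 0.1 (4.50). After overexpression it was of this size for Rcor3 (−2.11) and Klf8 (−1.65) with that floor. With all 3 trends removed, it was so for Klf8 (−0.37), Tbl1x (−0.38) and Kdm3b (−0.87). The ratios of Ctbp2 to Ctbp1, Hdac2 to Hdac1 and Ehmt2 to Ehmt1 kept the direction of their change in each setting tried. No paired analysis was possible because each group has 1 average, and leaving out a replicate was not run for the same reason. Depth and replicate error limit all values and are unknown.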
